A study of Mus musculus with 6 samples.

Results

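Insulin, insulin-like growth factors (IGFs) and fibroblast growth factors (FGFs) act through receptor tyrosine kinases, and the RNA of 9 genes of this receptor system was followed in CD8+ T cells cultured with or without an inhibitor of LSD1. The genes were Insr, Igf1r, Igf2r, Fgfr1, Irs1, Irs2, Igfbp4, Igfbp7 and Insl3. They were taken by symbol from the 16281 genes of the count table, and all 9 were found. They had been picked with the contrast between the treatments known, so their differences are a description and carry no p-value.

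The cells came from OT1 mice of strain C57BL/6 (genotype Tg(TcraTcrb)1100Mjb), whose T cells bear an engineered antigen receptor that recognises a peptide of ovalbumin. The labels give spleen as the tissue, and the series' text adds lymph nodes. All cultures were activated for 48 h with plate-bound anti-CD3 and soluble anti-CD28, each at 2 μg/ml, with IL-2 at 20 ng/mL, and were expanded in IL-2 for 3 more days. The LSD1 inhibitor GSK2879552 (GSK) was present throughout at 0.5 μM in 3 cultures, and the other 3 received vehicle (Veh). LSD1 is a histone demethylase that works with repressors such as GFI1. As a model, these are T cells of a single specificity, activated by antibodies in culture.

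Insulin and IGF1 bind the receptors INSR and IGF1R, which phosphorylate the adaptor proteins IRS1 and IRS2. These recruit the lipid kinase PI3K, which activates the kinase AKT, and AKT in turn holds FOXO transcription factors out of the nucleus and feeds mTOR, a kinase that drives growth. IGF2R has no kinase. It takes IGF2 into the cell for degradation and carries enzymes tagged with mannose phosphate to lysosomes. IGF-binding proteins hold IGFs outside the cell, FGFR1 signals to the RAS and ERK kinases through the adaptor FRS2, and INSL3 is a relaxin-like hormone best known from the testis. T cells gain insulin receptors when they are activated.

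The RefSeq promoter table of GRCm38.p6 matched 7 of the 9 genes, all but Insr and Fgfr1. The 250 bases before the start site are shown for Igf1r, Irs2 and Igfbp7, whose RNA was lower in GSK, and for Igf2r, which differed least, so that their base composition and motifs can be compared. Capitals mark the letters GGGCGG on either strand, the box that SP1 binds, and the E-box CACGTG, which reads the same on both strands. No matches overlapped, though a pair of SP1 boxes adjoin in Igf2r.
Igf1r (chr7:67952007-67952256, plus strand): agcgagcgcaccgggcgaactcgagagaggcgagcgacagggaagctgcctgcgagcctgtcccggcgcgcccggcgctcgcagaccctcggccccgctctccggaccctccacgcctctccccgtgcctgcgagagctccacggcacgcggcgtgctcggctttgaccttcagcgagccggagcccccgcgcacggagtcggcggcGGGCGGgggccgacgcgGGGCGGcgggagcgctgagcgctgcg
Irs2 (chr8:11008930-11009179, minus strand): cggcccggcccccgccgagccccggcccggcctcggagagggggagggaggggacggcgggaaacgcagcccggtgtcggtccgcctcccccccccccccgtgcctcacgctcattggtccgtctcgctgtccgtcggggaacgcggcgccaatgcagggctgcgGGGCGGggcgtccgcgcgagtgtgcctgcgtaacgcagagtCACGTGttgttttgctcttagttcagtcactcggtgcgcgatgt
Igfbp7 (chr5:77408046-77408295, minus strand): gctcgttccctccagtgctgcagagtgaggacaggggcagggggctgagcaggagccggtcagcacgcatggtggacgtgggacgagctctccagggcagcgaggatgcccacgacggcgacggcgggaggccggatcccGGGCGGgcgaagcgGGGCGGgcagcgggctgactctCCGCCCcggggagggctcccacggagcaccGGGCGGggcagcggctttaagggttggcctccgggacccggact
Igf2r (chr17:12769707-12769956, minus strand): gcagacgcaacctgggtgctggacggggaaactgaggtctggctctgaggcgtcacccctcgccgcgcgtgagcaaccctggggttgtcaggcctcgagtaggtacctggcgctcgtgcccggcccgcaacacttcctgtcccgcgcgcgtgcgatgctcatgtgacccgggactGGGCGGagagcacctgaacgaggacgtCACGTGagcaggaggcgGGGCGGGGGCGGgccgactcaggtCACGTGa

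The 7 windows held from 59.2% G and C in Insl3 to 77.6% in Igf1r, and all but that of Insl3 lay above the median of 59.6% over the 11890 windows of tested genes. CpG dinucleotides numbered from 11 in Insl3 to 42 in Igf1r, and the median over tested genes was 15. The SP1 box was present in 6 of the 7 windows and in 57.2% of the windows of tested genes. An E-box was found in 3, those of Igf2r, Irs1 and Irs2, and in 8.22% of the windows of tested genes. Neither the FOXO letters GTAAACA nor the GFI1 letters AAATCA, searched on both strands, occurred in the 7 windows (0 of 7 for each), and 2.2% and 7.46% of the windows of tested genes held them. A match describes these windows only and says nothing of binding.

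The counts summed to between 18288447 and 19846720 per sample. Levels are given as CPM, counts per 1000000 of the library after TMM scaling, which makes samples comparable but not genes. RNA of Cd8a averaged 516 ± 19.0 CPM (SD, n = 3) in Veh against 541 ± 13.1 CPM in GSK. The 8 CD8 T cell markers together ran from 3341 to 3478 CPM in Veh and from 3271 to 3462 CPM in GSK. Of these 8, Cd3d, Cd3e and Cd3g fell, with log2 fold changes of -0.16, -0.23 and -0.38 (adjusted p = 0.011, 0.0015 and 6.0e-05), and Cd2 and Lck rose by 0.15 and 0.13 (adjusted p = 0.026 and 0.011). Summed markers ran from 5.89 to 7.996 CPM in Veh and 5.63 to 6.98 CPM in GSK for B cells (Cd79b the most abundant), from 10.2 to 15.7 and 9.96 to 13.2 CPM for myeloid cells (Cd68), from 3.10 to 3.26 and 2.83 to 4.36 CPM for NK cells (Klrb1c) and from 43.9 to 53.2 and 40.7 to 45.9 CPM for CD4 T cells (Zbtb7b). Of their 10 tested genes, Cd40lg was called higher and Fcgr3 lower. Adgre1, a myeloid marker, and Ncr1, an NK marker, had at most 1 count in any sample, but other markers of both lists were detected. Itgam, a myeloid marker, had 50, 39 and 48 counts in Veh and 30, 38 and 19 in GSK. Cd68 had 201, 154 and 141 counts in Veh and 169, 207 and 166 in GSK. Of the 3 tested myeloid markers, 1 had a log2 fold change above 0 and 2 below, and 0 passed the adjusted p. Fcgr3, an NK marker, had 16, 16 and 29 counts in Veh and 11, 9 and 7 in GSK. Klrb1c, the other NK marker tested, had 43, 44 and 29 counts in Veh and 70, 46 and 59 in GSK. Kdm1a, which encodes LSD1, averaged 92.8 ± 5.45 CPM in Veh against 87.1 ± 3.54 CPM in GSK, a log2 fold change of -0.09 that missed the threshold (adjusted p = 0.22).

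The 11698 genes that passed a filter on low counts were compared between GSK and Veh with edgeR's quasi-likelihood test. A gene was called when its Benjamini-Hochberg adjusted p was under 0.05 and its fold change over 1.5. Of the 9 receptor pathway genes, 8 passed the filter and Irs1 did not. All 8 had a log2 fold change below 0, with a median of -0.74, where that of all tested genes was -0.0039. Calls were made for 6 of the 8 members of this set, 6 lower and 0 higher in GSK, where 4.09% of all tested genes were called lower, 2.22% higher and 6.32% in either direction. At the adjusted p alone 7 were lower, where 15.5% of all tested genes were lower, 16.6% higher and 32.1% either. In 7 of the 8 every GSK sample lay below every Veh sample, as in 23% of all tested genes, while 23.7% had every GSK sample above and 46.7% did not overlap in either direction. Since the genes were picked on this contrast, nothing is read from these counts.

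Insr, the insulin receptor gene, spans chromosome 8 from 3150922 to 3279649 on the minus strand of GRCm38. Its RNA was at 32.8, 30.5 and 30.3 CPM in Veh replicates 1 to 3 and at 20.1, 23.5 and 15.8 CPM in GSK replicates 1 to 3. The Veh samples lay close together, the GSK samples were more widely spread and all below them, and GSK replicate 3 was the lowest. The log2 fold change was -0.65 (SE 0.12), a level 1.57-fold higher in Veh. Without GSK replicate 3 it was -0.52, short of 1.5-fold, and the call was lost.

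Igf1r, the IGF1 receptor gene, lies on chromosome 7 from 67952257 to 68233668 on the plus strand, where 2 noncoding genes, Gm51488 and Gm51487, overlap it. Its RNA was at 7.94, 7.24 and 8.09 CPM in Veh and at 4.30, 3.75 and 4.59 CPM in GSK. Both groups were tight and clearly apart. The log2 fold change was -0.88 (SE 0.15), or 1.84-fold higher in Veh, and it stayed between -0.95 and -0.80 whichever sample was left out, with a call each time.

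Fgfr1, an FGF receptor gene, lies on chromosome 8 from 25518759 to 25575718 on the plus strand, overlapped by the noncoding genes Gm31288 and Gm16159. It was a low gene, with 34, 28 and 56 counts in Veh and 11, 16 and 19 counts in GSK. As CPM these were 1.85, 1.502 and 2.94 in Veh and 0.578, 0.810 and 0.991 in GSK. Veh replicate 3 stood above the other Veh samples, and the groups did not overlap. The difference in log2 was -1.40 (SE 0.35), or 2.64-fold higher in Veh, and without Veh replicate 3 it was -1.07 and not called. The exons of the antisense gene Gm16159 share 164 bases with those of Fgfr1, and reads there cannot be told apart if the counting ignored strand, which is not given in the sources used here.

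Igf2r, the receptor for IGF2 and mannose phosphate, lies on chromosome 17 from 12682406 to 12769706 on the minus strand. It was at 306, 287 and 291 CPM in Veh and 267, 286 and 288 CPM in GSK. The groups overlapped, and the log2 fold change of -0.07 (SE 0.045) was the smallest in size among the 8 tested genes. The noncoding RNA gene Airn runs across part of Igf2r on the other strand and shares 0 annotated exon bases with it.

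**Figure D1:**
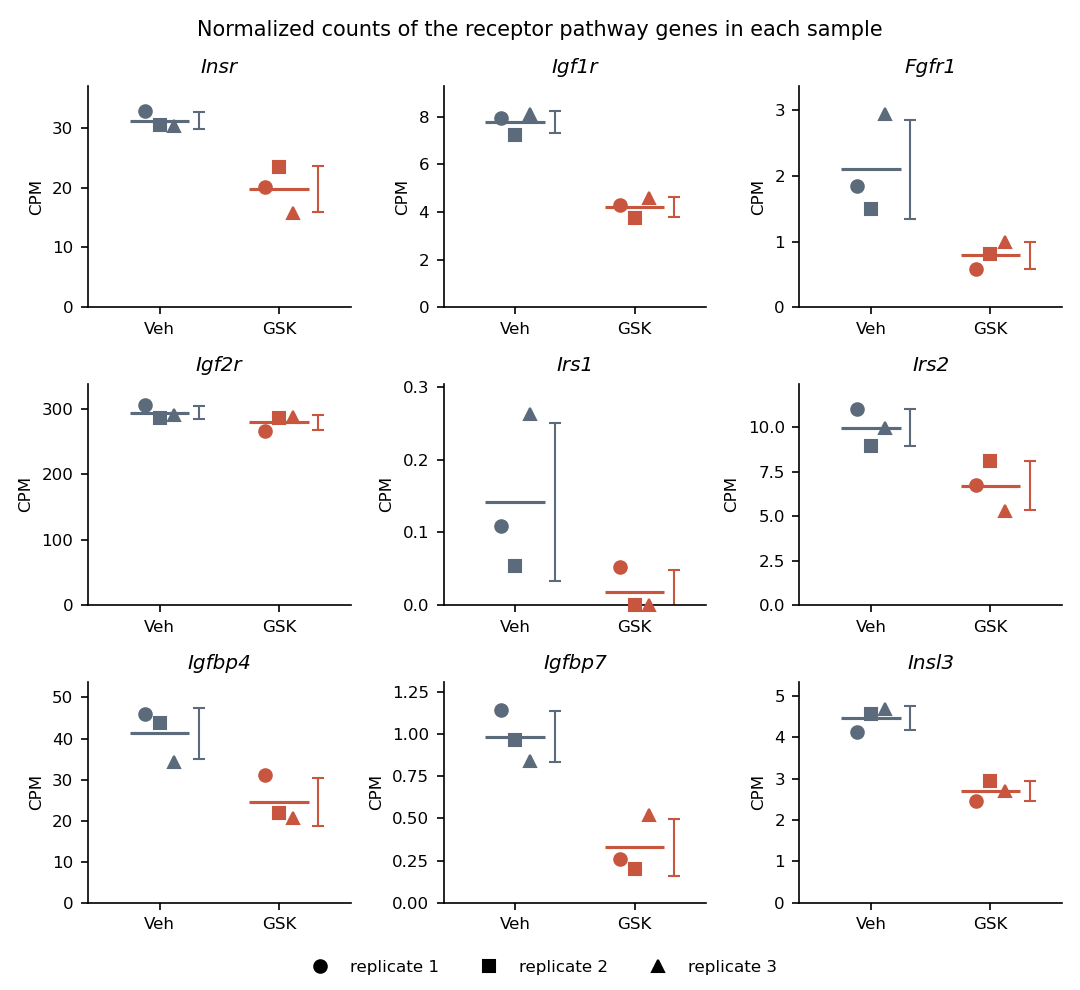
CPM (vertical axes, each from 0) of the 9 genes in the 3 Veh and 3 GSK samples, with replicates as circles, squares and triangles, a line at each group mean and a bar of 1 SD either way beside it. In 7 of the 8 genes tested every GSK sample lay below every Veh sample, and in Igf2r the groups overlapped.

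Of the adaptors, Irs2 was expressed and Irs1 hardly at all. Irs2 lies on chromosome 8 from 10984681 to 11008929 on the minus strand and shares 162 exon bases with the noncoding gene 9530052E02Rik on the other strand. Its RNA was at 11.0, 8.96 and 9.98 CPM in Veh and at 6.77, 8.10 and 5.32 CPM in GSK. GSK replicate 2 came near the lowest Veh sample without reaching it. The log2 fold change of -0.57 (SE 0.16), a level 1.48-fold higher in Veh, fell just short of the 1.5-fold needed for a call. A call was made without Veh replicate 2 (-0.64) and without GSK replicate 2 (-0.73). The adjusted p itself missed its threshold without Veh replicate 1 (-0.49), GSK replicate 1 (-0.58) or GSK replicate 3 (-0.43). Irs1, on chromosome 1 from 82233105 to 82291439, had 2, 1 and 5 counts in Veh and 1, 0 and 0 counts in GSK, too few for a test or a fold change.

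Igfbp4, an IGF-binding protein known from stromal tissue and also from naive T cells, lies on chromosome 11 from 99040005 to 99052655 on the plus strand. Its RNA was at 46.0, 43.7 and 34.3 CPM in Veh and at 31.1, 21.8 and 20.5 CPM in GSK. Veh replicate 3, the lowest of its group, lay little above GSK replicate 1, the highest of the other. The log2 fold change was -0.76 (SE 0.19), or 1.69-fold higher in Veh. The call was lost without Veh replicate 1 (-0.67), Veh replicate 2 (-0.71), GSK replicate 2 (-0.68) or GSK replicate 3 (-0.65), and with no filter on low counts (-0.75).

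Igfbp7, a secreted protein of endothelial and stromal cells that binds IGFs weakly, lies on chromosome 5 from 77349240 to 77408045 on the minus strand, overlapped by Polr2b and the noncoding gene Gm34648. It had 21, 18 and 16 counts in Veh and 5, 4 and 10 counts in GSK. As CPM these were 1.14, 0.966 and 0.841 in Veh and 0.263, 0.202 and 0.521 in GSK, apart but low in both groups. The difference in log2 of -1.56 (SE 0.44) was 2.96-fold in favour of Veh, within 1 SE of that of Fgfr1. A stricter filter, a CPM of at least 1 in 3 samples, left Igfbp7 out. The difference moved to -2.05 without GSK replicate 3, and the call was lost without Veh replicate 1 (-1.44), GSK replicate 1 (-1.43) or GSK replicate 2 (-1.31). The end of Igfbp7 shares 85 exon bases with Polr2b on the other strand, a gene of 154 ± 5.39 CPM in Veh and 168 ± 3.98 CPM in GSK.

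Stromal and endothelial cells are known to express Igfbp7 and Fgfr1, so the markers of these cells are given here. Of the 12 markers, 6 were tested and 0 passed an adjusted p of 0.05 in edgeR (2, Col1a1 and Pecam1, had an unadjusted p under 0.05). The 11 markers other than Pecam1 summed to 6.25 to 7.19 CPM in Veh and 4.15 to 6.21 CPM in GSK. Pecam1, which T cells also express, was the most abundant, with 74.0 ± 4.497 CPM in Veh against 63.4 ± 8.01 CPM in GSK (adjusted p = 0.062). Col1a1, a collagen of fibroblasts, averaged 1.96 ± 0.319 CPM in Veh and 1.15 ± 0.108 CPM in GSK (log2 fold change -0.76, adjusted p = 0.051). Of the 6 tested markers, 5 had a log2 fold change below 0 and 1 above. Of the endothelial genes, Cdh5 had 1, 3 and 3 counts in Veh and 0, 0 and 0 in GSK. Vwf had 1, 0 and 0 counts in Veh and 0, 0 and 1 in GSK. Lyve1 had 0, 4 and 2 counts in Veh and 0, 1 and 0 in GSK. Kdr had 7, 8 and 4 counts in Veh and 13, 2 and 11 in GSK. The part of such cells in the levels of Igfbp7 and Fgfr1 was not tested, and in bulk RNA fewer cells of a kind and less RNA per cell cannot be told apart.

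Insl3 shares exon bases with Jak3, the gene of a kinase that serves the IL-2 receptor, and reads on those bases cannot be told apart. Insl3 lies on chromosome 8 from 71689252 to 71690577, wholly within the region of Jak3 and on the same strand. Of its 623 annotated exon bases, 404 are also exon of Jak3 in the GENCODE annotation, which leaves 219 of its own. Among the 5 Jak3 transcripts 2 share bases with it, Jak3-201 all 404 and Jak3-204 a part of them. Insl3 was at 4.13, 4.56 and 4.68 CPM in Veh and at 2.47, 2.94 and 2.71 CPM in GSK. The groups were well apart, with a log2 fold change of -0.72 (SE 0.19), or 1.65-fold higher in Veh, and a call whichever sample was left out.

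Jak3 averaged 301 ± 3.51 CPM in Veh against 254 ± 21.5 CPM in GSK and was lower in GSK by less than 1.5-fold (log2 fold change -0.24, SE 0.055, adjusted p = 0.0050 from edgeR). The counts of Insl3 were 1.36%, 1.52% and 1.57% of those of Jak3 in Veh and 0.956%, 1.07% and 1.17% in GSK, so the share was lower in every GSK sample. Whether the reads given to Insl3 came from its own transcript was not tested, nor was how many fell on the bases shared with Jak3. Its values may include reads of Jak3.

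**Figure D2:**
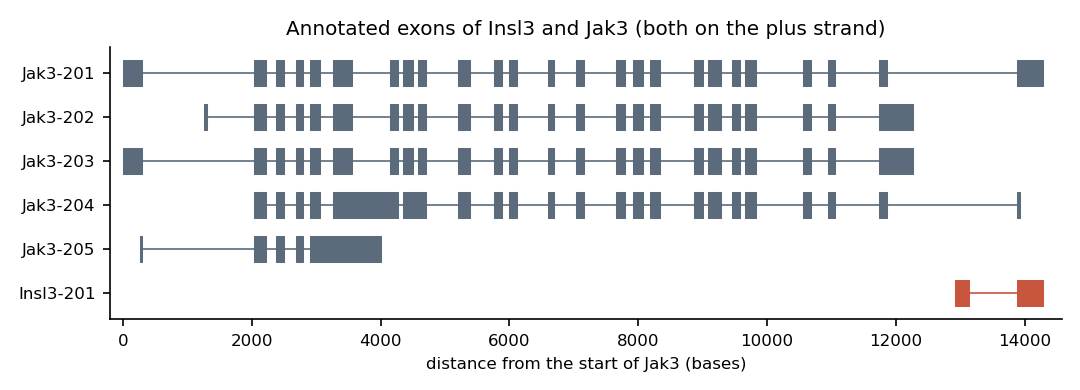
Exons (boxes) of the 5 annotated Jak3 transcripts and of Insl3, by distance from the start of Jak3 in bases. The second exon of Insl3 coincides with the last exon of Jak3-201, and its first exon, of 219 bases, meets no Jak3 exon.

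Levels of different genes were compared as CPM per kilobase, over the union of a gene's annotated exons. In Veh, Igf2r stood highest with 31.6 ± 1.08 CPM per kilobase (SD, n = 3), followed by Igfbp4 with 9.36 ± 1.41, the Insl3 locus with 7.15 ± 0.459, Insr with 2.27 ± 0.101 and Irs2 with 1.58 ± 0.165. Below these came Igfbp7 with 0.813 ± 0.125, Igf1r with 0.462 ± 0.0270, Fgfr1 with 0.212 ± 0.0761 and Irs1 with 0.0155 ± 0.0118 CPM per kilobase. The samples of neighbours in this order did not overlap in Veh. The place of Insl3 is uncertain, since its level was taken over all 623 exon bases and 404 of them are shared with Jak3. The order of the means was the same in GSK, where the samples of Igfbp4 and Insl3, of Insr and Irs2, and of Igfbp7 and Igf1r overlapped.

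**Figure D3:**
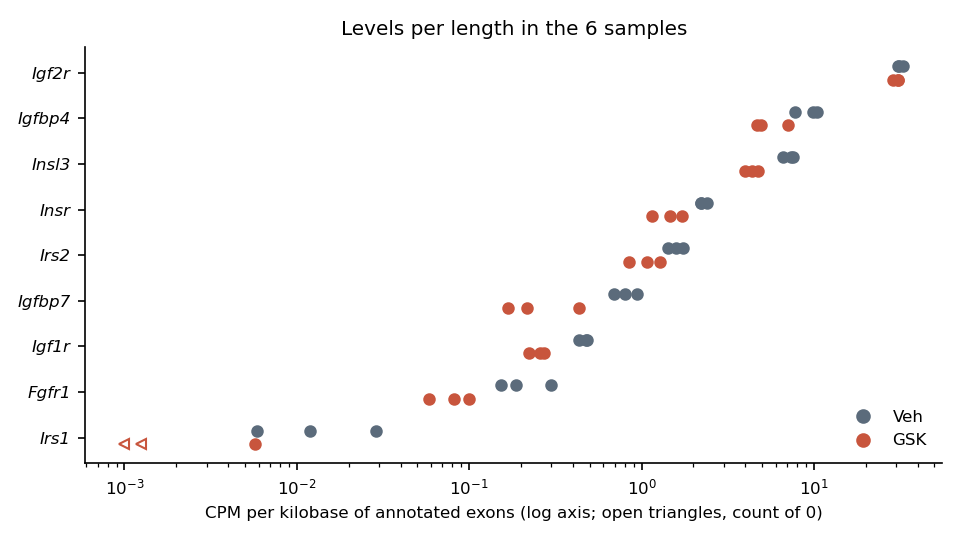
CPM per kilobase of annotated exons (horizontal log axis) of the 9 genes in the 3 Veh samples (grey) and the 3 GSK samples (red), with genes in the order of their Veh means. Igf2r stood highest and Irs1 lowest in both groups, and open triangles, set at the left edge, stand for the 2 GSK samples without a count of Irs1.

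The other genes of the system came from 9 lists with 174 genes, of which 154 were in the table and 118 were tested. By the same edgeR test, 10 were called lower in GSK and 1 higher, where 4.09% and 2.22% of all tested genes were. At the adjusted p alone 29 were lower and 14 higher, where 15.5% and 16.6% of all tested genes were. The median log2 fold change of the 118 genes was -0.05. Since the lists were chosen with earlier results of these data known, these counts are a description.

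Igf2, the ligand that Igf2r clears, had 0, 0 and 2 counts in Veh and 2, 0 and 0 counts in GSK. Ins1, Ins2 and Igf1 had no row in the count table. Insrr, the insulin receptor-related receptor, averaged 6.24 ± 1.15 CPM in Veh and 5.35 ± 0.913 CPM in GSK (adjusted p = 0.38). Insl6, another relaxin-like gene, averaged 8.09 ± 1.34 CPM in Veh and 6.96 ± 0.547 CPM in GSK (adjusted p = 0.29). Per kilobase it stood at 11.4 ± 1.89 CPM in Veh. Of the other IGF-binding proteins Igfbp6 had enough counts to be tested and did not pass (adjusted p = 0.90). Igfbp3 had 5, 6 and 9 counts in Veh and 3, 2 and 1 counts in GSK and was not tested.

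Of the FGF receptors with a kinase, Fgfr1 was the one with enough counts for a test, since Fgfr2, Fgfr3 and Fgfr4 had at most 6 counts in any sample. Of the 8 other tested genes of the FGF list, 2 fell and 0 rose at the adjusted p alone, against 15.5% and 16.6% of all tested genes. Frs2, the adaptor of FGF receptors, fell by 0.32 on the log2 scale (SE 0.074, adjusted p = 0.0060), from 39.3 ± 0.981 to 31.6 ± 2.85 CPM. Plcg1, a phospholipase that T cell receptors also use, fell by 0.26 (SE 0.055, adjusted p = 0.0032), in a region that overlaps Zhx3. Fgf13, a family member that stays inside the cell, averaged 27.7 ± 2.74 CPM in Veh and 26.5 ± 1.84 CPM in GSK (adjusted p = 0.61).

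Of the 21 tested adaptors and brakes of insulin signalling, 3 fell and 2 rose at the adjusted p alone, no larger shares than the 15.5% and 16.6% of all tested genes. Gab2, a docking protein that recruits PI3K, was called lower, from 5.90 ± 1.39 to 3.57 ± 0.647 CPM (log2 fold change -0.72, adjusted p = 0.018), but not without Veh replicate 2 or GSK replicate 3 (adjusted p up to 0.094). Enpp1, a membrane enzyme known to inhibit the insulin receptor, was called lower, from 4.33 ± 0.658 to 2.41 ± 0.551 CPM (-0.84, adjusted p = 0.012), but not without Veh replicate 3 or GSK replicate 1 (up to 0.056). Sh2b1, an adaptor that enhances insulin receptor signalling, fell by 0.33 on the log2 scale (adjusted p = 2.2e-04). Dok2, an adaptor that restrains signalling and overlaps Xpo7, rose by 0.37 (adjusted p = 2.1e-04), and Ptpn1, a phosphatase of the insulin receptor, rose by 0.24 (adjusted p = 0.0021).

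In the branch of PI3K, AKT and FOXO, 10 of 26 tested genes fell and 3 rose at the adjusted p alone. Over all tested genes these shares were 15.5% and 16.6%. Of the regulatory subunits of PI3K, Pik3r1 and Pik3r2 fell and Pik3r3 rose. Pik3r1, which encodes the main subunit, went from 182 ± 6.53 to 130 ± 8.67 CPM (log2 fold change -0.48, SE 0.053, adjusted p = 4.5e-05). Pik3r2 fell by 0.41 on the log2 scale, from 14.8 ± 1.70 to 11.1 ± 1.30 CPM (adjusted p = 0.018). Pik3r3, which encodes a minor subunit and overlaps the annotated gene Gm18535, was called higher, from 2.39 ± 0.396 to 6.38 ± 0.521 CPM (1.41, SE 0.18, adjusted p = 1.4e-04). Per kilobase of exons Pik3r3 stayed below Pik3r1 in GSK, at 1.203 ± 0.0983 against 12.9 ± 0.860 CPM.

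Foxo3, a transcription factor that AKT restrains, was called lower, from 86.3 ± 1.75 to 47.4 ± 3.56 CPM (-0.86, SE 0.06, adjusted p = 1.2e-06), and the predicted gene Gm38485 overlaps it. Trib3, an inhibitor of AKT, fell by 0.50 on the log2 scale (adjusted p = 2.2e-04), and Phlpp1, a phosphatase of AKT, fell by 0.42 (adjusted p = 0.0021). Genes that carry the signal and genes that restrain it were both among those that fell.

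**Figure D4:**
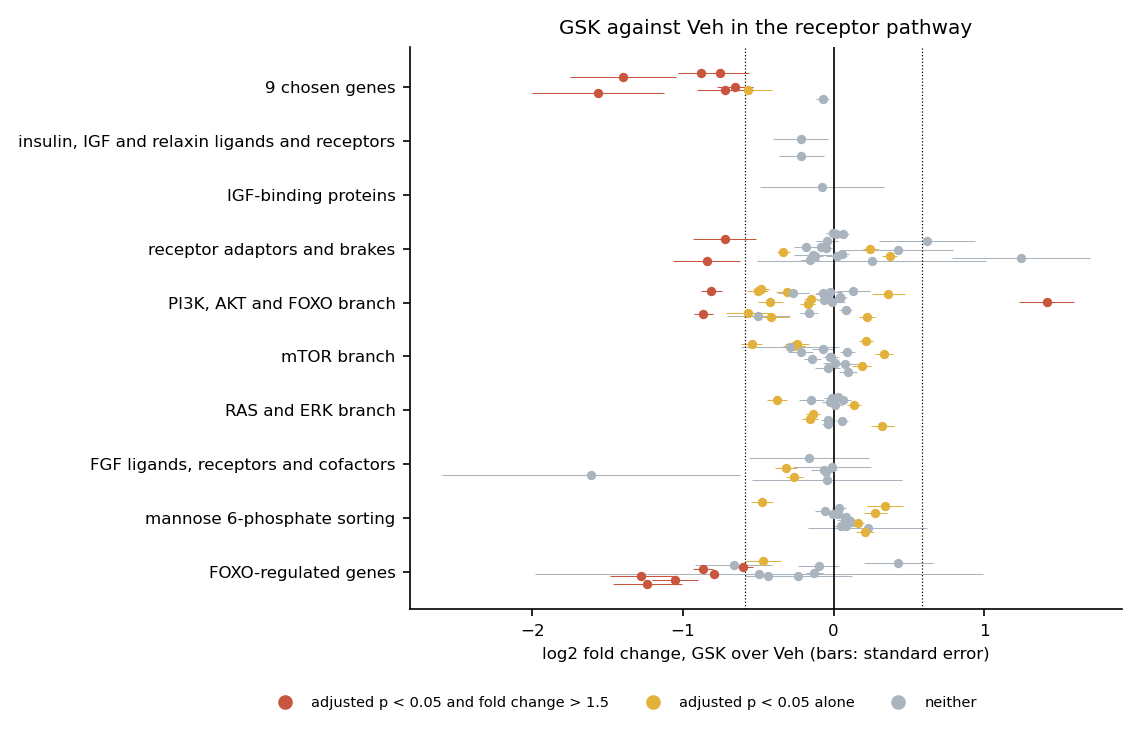
Log2 fold change of GSK over Veh (horizontal axis, bars of 1 standard error) for the tested genes among the 9 chosen genes and in each of the 9 pathway lists, with dotted lines at 1.5-fold. The 8 tested chosen genes lay left of 0, and of the 118 other pathway genes 10 were called lower and 1, Pik3r3, higher.

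Of the 17 genes of the mTOR branch, 3 rose and 3 fell at the adjusted p alone, and none was called past 1.5-fold. The shares at the adjusted p lay close to those of all tested genes, 16.6% higher and 15.5% lower. Eif4ebp1, a repressor of translation that mTOR switches off, fell by 0.54 on the log2 scale (SE 0.069, adjusted p = 1.1e-04), from 77.2 ± 3.61 to 53.0 ± 5.11 CPM. Eif4e, the cap-binding factor it represses, rose by 0.34 (adjusted p = 0.0010), and Rps6kb1, the gene of an S6 kinase, rose by 0.22 (adjusted p = 0.0037). Both of these overlap other annotated genes, Mir1956 and Rnft1. In the branch of RAS and ERK, 3 of 14 genes fell and 2 rose, against 15.5% and 16.6% of all tested genes. Mapk3, which encodes ERK1, fell by 0.37 (adjusted p = 0.0011) and Hras rose by 0.32 (adjusted p = 0.0054). Braf fell by 0.16 (adjusted p = 0.037), which was lost with the replicate block, DESeq2 or no filter on low counts, and without any 1 of 5 samples (adjusted p up to 0.13).

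The sorting route of mannose phosphate, which Igf2r serves, had 4 of 15 genes that rose and 1 that fell at the adjusted p alone, against 16.6% and 15.5% of all tested genes. Sorl1, a sorting receptor that overlaps Gm16214, fell by 0.48 on the log2 scale (adjusted p = 7.3e-04). Ap1g1, a subunit of a Golgi adaptor complex, rose by 0.16 (adjusted p = 0.010), though not without GSK replicate 1 (0.062). Vps29, a retromer subunit that overlaps Fam216a, rose by 0.21 (adjusted p = 0.017), though not without Veh replicate 1, Veh replicate 3 or GSK replicate 1 (up to 0.089).

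Insr and Irs2 are known targets of FOXO factors, and of 14 other tested genes that FOXO factors regulate, 7 fell and 0 rose at the adjusted p alone and 6 were called lower. Among all tested genes 15.5% were lower and 16.6% higher at the adjusted p, and 4.09% were called lower. The list was chosen with earlier results of these data known, so these shares are a description. The part of FOXO factors in these differences was not tested. The median log2 fold change of the 14 genes was -0.55. Ccng2, a cyclin of resting cells, went from 133 ± 8.80 to 72.9 ± 6.24 CPM (-0.86, adjusted p = 4.2e-06), and Cdkn1b, the gene of a cell cycle inhibitor, from 134 ± 4.06 to 77.4 ± 7.56 CPM (-0.79, adjusted p = 4.3e-06). Klf2, a factor of resting T cells, went from 61.8 ± 9.27 to 29.8 ± 5.21 CPM (-1.05, adjusted p = 0.0030). S1pr1, the receptor for exit from lymph nodes, went from 114 ± 21.6 to 48.3 ± 11.2 CPM (-1.23, adjusted p = 0.018), though the call was lost without GSK replicate 1 or 3 (up to 0.057). Tcf7, a factor of memory T cells whose region overlaps Skp1, went from 300 ± 42.8 to 124 ± 26.9 CPM (-1.28, adjusted p = 0.012). Sesn1, a stress-response gene, was called lower (-0.60, adjusted p = 4.0e-05), but was short of 1.5-fold without Veh replicate 1, Veh replicate 3 or GSK replicate 1. Bcl2l11, a gene of cell death that overlaps Acoxl, fell by 0.47 (adjusted p = 0.026, up to 0.094 with 1 sample left out).

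**Figure D5:**
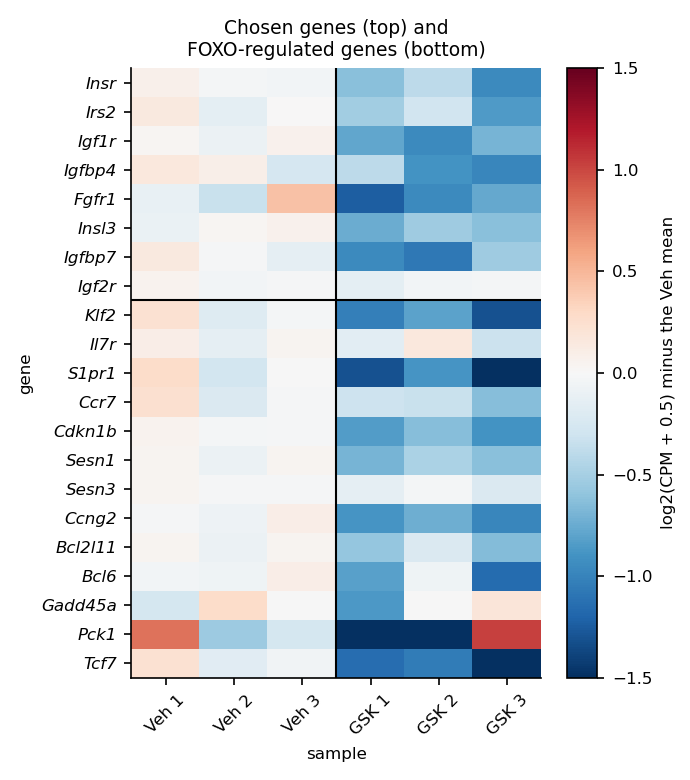
Difference of log2(CPM + 0.5) from the mean of the Veh samples (colour) in each sample (columns) for the 8 tested chosen genes (upper rows) and 13 tested FOXO-regulated genes (lower rows). Insr, Irs2 and 9 of these 13 had their highest GSK value in replicate 2 and their lowest in replicate 3.

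Among the genes next to the 9, some were lower, 1 was higher and others did not pass. Unc13a, 17478 bases from Insl3, was called lower (-0.72, adjusted p = 1.7e-04), while B3gnt3, on the other side, did not pass (adjusted p = 0.47). Letm2, beside Fgfr1, fell by 0.51 on the log2 scale (adjusted p = 0.030), and Tacc1, on the other side, rose by 0.14 (adjusted p = 0.030). Arhgef18, beside Insr, fell by 0.32 (adjusted p = 0.039). The tested neighbours of Igf1r, Igfbp4, Igfbp7, Irs1 and Irs2 did not pass, with adjusted p = 0.64 for Pgpep1l, 0.051 for Top2a, 0.051 for Polr2b, 0.11 for Noa1, 0.055 for Rhbdd1 and 0.27 for Myo16.

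Over the 6 samples, the tested genes nearest in pattern to Insr were Scml4 and Ccl5, with a root mean square difference of 0.033 and 0.038 in log2 CPM after each gene was centred on its mean. For Igf1r these were Muc2 (0.051) and Clybl (0.061), and for Insl3 they were Lrrc27 (0.056) and Impa2 (0.06). Igfbp4 was nearest to Pon3 (0.089) and Trerf1 (0.1). The low genes had more distant matches, Stc2 (0.15) and Spin4 (0.16) for Fgfr1 and Ccdc38 (0.18) and Rhobtb1 (0.24) for Igfbp7.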

How the data were processed

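RNA of 3 GSK and 3 Veh cultures was sequenced as stranded poly(A) libraries. The authors trimmed reads with Trimmomatic, mapped them to GRCm38 with HISAT2 (version 2.1.0) and made read counts per gene with HTSeq (version 0.11.2), per the submitters' processing notes, and deposited the counts without normalization. The annotation release and the strand setting are not given in the sources used here.

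Groups were tested by the quasi-likelihood method of edgeR (version 4.0.16; R version 4.3.3) in its robust form, on counts scaled by TMM and filtered by filterByExpr, with Benjamini-Hochberg adjustment across the tested genes. Standard errors were derived from the test statistic. The p-values measure the spread between 3 samples per group, which the study describes as cells of separate mice, and an exact permutation test (two-sided) cannot go below 0.1. In simulated counts with 200 of 11698 genes changed, 93.5% were recovered with 10 false calls. That share is over all 200 genes. Recovery at the smaller differences reported here, such as those of Insr and Irs2, was not tested. The alternatives were DESeq2 (version 1.42.0), RLE size factors, no filter or a stricter filter on low counts, a test against a fold change of 1.5, the replicate number as a block, and each sample left out in turn.

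The 9 genes, the pathway lists and the marker lists were chosen with earlier results of these data known. The genes named were the 9, every called pathway gene, the 3 with the smallest p per list among those past the adjusted p alone, overlapping and neighbouring genes, the 2 nearest in pattern to each called gene, Kdm1a, Cd8a, Cd3e and the most abundant marker of each other cell type. Pik3r2, Foxo1, Foxo4, Insrr, Insl6, Igf2, Igfbp3, Igfbp6, Fgf13, the other FGF receptors and the further markers were added with their values in view. Coordinates come from a RefSeq table and exon lengths from GENCODE, both of GRCm38. Counts of overlapping genes are uncertain. Some genes that meet the rule are not reported here.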

Additional observations from a re-analysis of the deposited data

How the results depend on the processing

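Of 59 counts under the other settings, 54 stayed within 1.5 times the reported count. The test of the fold change against 1.5 gave 69 genes higher and 65 lower in GSK, called 0 of the 9 receptor pathway genes and left 3 pathway genes. With each sample left out in turn, 224 to 291 genes were called higher and 403 to 547 lower, with 4 to 6 of the 9 genes and 9 to 15 pathway genes called. Pathway genes past the adjusted p ran from 28, without GSK replicate 1, to 51. Of 87 log2 fold changes of the 9 genes under other settings, 86 moved by less than the spread between replicates and 0 changed sign. That of Igfbp7 was -2.05 without GSK replicate 3, and DESeq2 gave Igfbp7 no adjusted p. The cause of these moves was not tested. Same-numbered samples did not deviate together (correlations across genes of -0.052, -0.081 and 0.16), so the numbers were not taken to pair the samples. Veh replicate 1 with GSK replicate 2 had 0.22, and Veh replicate 2 with GSK replicate 1 had 0.11. The correlations of the other differently numbered samples were negative. Nothing says whether any Veh and GSK cultures shared a mouse, and a pairing under another numbering was not tested. With the replicate block, 253 genes were called higher and 447 lower, with 6 of the 9 genes and 12 pathway genes called and 39 past the adjusted p. Low counts limit Irs1, Igfbp7 and Fgfr1, whose differences rest on at most 56 counts in a sample.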

Other observations

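Within the GSK group, Insr and Irs2 had the same order of samples, with replicate 2 highest and replicate 3 lowest. Of the 14 tested FOXO-regulated genes, 10 (71.4%) had this order, as did 39.9% of the genes called lower in GSK and 22.8% of all tested genes. Among the 8 tested receptor pathway genes these were the 2 with this order (25%), close to the share of all tested genes. In the Veh group Irs2 was highest in replicate 1 and lowest in replicate 2, while Insr was highest in replicate 1 and lowest in replicate 3. The order of Irs2 was found in 7 of the 14 FOXO-regulated genes (50%), in 26.5% of the genes called lower and in 16.7% of all tested genes. These shares were looked at after the values were seen and were not tested, and genes of 1 library are not independent of each other.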
